A study of Mus musculus with 8 samples.

Results

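The proteasome is the protease complex that degrades ubiquitin-tagged proteins in the cytosol and nucleus. Its constitutive subunits were taken as every gene whose only symbol on a probe set, a group of short array probes read as 1 value, began with Psma, Psmb, Psmc or Psmd and a digit, without *Psmb8*, *Psmb9* and *Psmb10*, which encode the inducible subunits of the immunoproteasome. Where a gene had several probe sets, the brightest by its mean of 8 arrays stood for it. The rule found 36 of the 12393 genes on the array, with 65 probe sets. Of these, 15 encode the core particle and 17 the regulatory particle, 3 (*Psmd5*, *Psmd9* and *Psmd10*) encode chaperones that assemble the regulatory particle and are counted with it as 20 regulatory genes unless said otherwise, and the last, *Psmc3ip*, matched by its letters only: it encodes a cofactor of meiotic recombination and is kept apart from the 35 proteasome genes.

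The arrays measured RNA of immature myeloid cells (IMCs), sorted as CD11b+Gr-1+ from the spleens of 4 male *Tff2*-/- mice on the C57BL/6 background, 16 weeks old, that had received 3% DSS, which injures the colon, in their water for 5 days and were killed 14 days later. The IMCs of each mouse were cultured for 7 days as 2 portions, with GM-CSF (Csf2) at 5 nM as given in the labels, or with the same GM-CSF plus 3 μM mouse recombinant TFF2 (rTFF2). The study's methods give a different, lower concentration of GM-CSF, and which was used is not settled here. Every culture therefore came from cells without a working *Tff2* gene, and each of the 4 control cultures (GM-CSF) had a partner with rTFF2 from the same mouse. The comparison asks how added rTFF2 changed the RNA of these cells after a week of growth. Values are log2 signals, so that a difference of 1 is a 2-fold change, and they are given for mice 1 to 4 in that order.

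The core particle is a barrel of stacked rings. Alpha subunits form its outer rings and gate its entrance, and beta subunits form the inner rings, where *Psmb5*, *Psmb6* and *Psmb7* encode the proteolytic sites. The regulatory particle caps the barrel: its base holds a ring of ATPases that unfold substrates and push them into the core, and its lid removes the ubiquitin chain. Cells usually adjust the subunit genes together, through the transcription factor NRF1 (*Nfe2l1*) when the proteasome is inhibited, and through NRF2 (*Nfe2l2*) under oxidative stress. Both factors bind antioxidant response elements together with small Maf proteins.

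Promoter sequence is shown here because the antioxidant response element is the known route to joint control of these genes. Promoters came from RefSeq for GRCm38.p6, and 29 of the 36 genes had one. The letters TGACNNNGC, the core of the element, were searched on both strands in the 250 bases before the start of transcription. They were found in 5 of 29 members (17.2%), beside 11.5% of the 27025 genes with a promoter and 10.2% of all 32851 promoter windows of the same length. Each stretch below reads 5′ to 3′ on the strand of its gene, with the matched letters in capitals and up to 20 bases on each side. In *Psmc6* and *Psmd12* the match is on the opposite strand, so the capitals hold its reverse complement.
Psmb5, chr14:54618014-54618062, minus strand: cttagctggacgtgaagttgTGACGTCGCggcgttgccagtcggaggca
Psmb6, chr11:70525328-70525356, plus strand: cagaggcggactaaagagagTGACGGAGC
Psmc6, chr14:45329577-45329625, plus strand: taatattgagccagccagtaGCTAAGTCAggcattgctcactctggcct
Psmd9, chr5:123228139-123228187, plus strand: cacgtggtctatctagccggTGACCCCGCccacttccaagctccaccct
Psmd12, chr11:107479278-107479309, plus strand: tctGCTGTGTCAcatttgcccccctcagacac
The CCAAT box, the site of the factor NF-Y in many housekeeping promoters, was searched as CCAAT on both strands. It was found in 12 of 29 members (41.4%), beside 37.5% of genes and 33.8% of windows. Of these members only *Psma7*, a core subunit, and *Psmc3ip* passed the threshold given below, both as a fall with rTFF2. The stretch of *Psma7* is shown as an example.
Psma7, chr2:180042636-180042680, minus strand: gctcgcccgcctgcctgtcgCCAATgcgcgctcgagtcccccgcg
A match says only that these letters stand in the window.

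All 36 genes lay above the background level in at least one group. That level, 3.29, is the 95th percentile of the means of 36 genes of other tissues. Array medians lay between 4.09 and 4.12 in the GM-CSF cultures and between 4.14 and 4.20 with rTFF2. These did not overlap (exact two-sided permutation test over 70 divisions of the arrays, p = 0.029), and the mean difference was 0.05. Of the 10 markers fixed for the sorted cells 7 were measured, and all 7 lay above background in both groups, *Itgam* (CD11b) among them. *Ly6g*, *Ly6c1* and *Ly6c2*, whose products carry Gr-1, had no probe set with that single symbol. The T cell genes *Cd3e*, *Cd3d* and *Cd3g*, the B cell genes *Cd79a*, *Cd79b*, *Ms4a1* and *Pax5*, and 4 of 4 erythroid markers stood at or under the background level. Of these lists, 1 of 8 T and NK cell markers and 1 of 5 B cell markers stood above it. *Thy1* had means of 4.40 with GM-CSF and 6.54 with rTFF2, with overlapping groups (limma adjusted p = 0.064), and *Ighm* 5.97 and 6.26 (adjusted p = 0.16).

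The cultures differed in further lists of myeloid cell markers. All 14 neutrophil markers rose with rTFF2, and the log2 of their summed signal went from 15.22 to 16.12 in the GM-CSF cultures to 16.51 to 16.73 with rTFF2. Of the 10 basophil and mast cell markers 7 rose (7.69 to 8.999 against 12.06 to 12.93), while the mast cell genes *Cma1*, *Mcpt4* and *Tpsb2* stood under the background level. Among 10 dendritic cell and MHC class II markers, 9 fell (14.81 to 15.17 against 12.97 to 13.52). The part of these cells in the values of the proteasome genes was not tested, and in bulk RNA fewer cells of a type and less RNA per cell cannot be told apart. For *Actb*, the signal of the 3′ probe set minus that of the 5′ one, a sign of RNA degradation, was 0.53 ± 0.09 (SD, n = 4) in GM-CSF cultures and 0.70 ± 0.05 (n = 4) with rTFF2, without overlap (exact two-sided permutation test over 70 divisions, p = 0.029, the smallest p that 4 against 4 allows). The same measure of *Gapdh* was 0.22 ± 0.07 and 0.26 ± 0.04 (exact p = 0.40). With the *Actb* value as a covariate, 0 of the 35 proteasome genes passed the threshold in either direction, and the share of all genes called dropped to 4.22% higher and 3.95% lower. Because that value did not overlap between the groups, this fit cannot fully tell it apart from rTFF2.

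The constitutive proteasome genes shifted little. With rTFF2, 4 of 35 fell, *Psmc4*, *Psmd8*, *Psma7* and *Psma5*, by 0.22 to 0.39 on the log2 scale, and 0 rose (limma with the mouse as a block, Benjamini-Hochberg adjusted p under 0.05 over 22626 probe sets). Of all 12393 genes 14.5% were called higher and 13.3% lower in the same fit, 27.7% in either direction. Of the 7445 genes at least as bright as the dimmest member it called 22.7% higher and 18.2% lower, 40.8% in all. That member, *Psma8*, had a mean of 3.30, near the background level of 3.29, so these genes are not matched in brightness to the other members. The share of proteasome genes that fell, 11.4%, was thus near the background of all genes in this fit. It depended on the processing: after median centring 10 of 35 were called lower, beside 17% of all genes. With the *Actb* covariate 0 of 35 were, beside 3.95%. At an unadjusted p under 0.05 from limma 11 were lower (31.4%) and 1 was higher (2.86%). The shares were 19.99% and 19.3% of all genes, and 24.4% and 29.5% of those 7445 genes. No member differed by more than 0.5, a 1.41-fold change, whereas 14.3% of all genes did. The 95% intervals of 35 of 35 members lay within a 2-fold change in either direction, and those of 32 within 1.41-fold.

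Most of the small differences had the same sign. The fitted difference was below 0 for 29 of 35 members and above 0 for *Psma3*, *Psmb3*, *Psmb5*, *Psmb6*, *Psmd9* and *Psmd10*. Their median was -0.10, beside -0.03 for all genes, where 6874 of 12393 had a difference below 0. Within single mice 27, 26, 31 and 23 of the 35 were lower with rTFF2, with medians of -0.12, -0.10, -0.16 and -0.03. The rTFF2 culture was lower than its partner in 4 of 4 mice for 16 of 35 members, a larger share than the 24.6% of all genes. The rTFF2 culture was higher in 4 of 4 mice for 2 of 35, a smaller share than the 21.9% of all genes. Groups did not overlap for 7 members in the lower and 2 in the higher direction (13.8% and 13.6% of all genes). Subunit RNAs measured on the same arrays are not independent of each other, so these counts are a description.

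The number of calls dropped when a mouse was left out, among the members and among all genes. Without mouse 1, 2, 3 or 4, 2, 1, 0 and 2 members were called lower, and 0 higher each time. Of all genes, 8.05%, 11.4%, 8.03% and 9.3% were then called lower, beside 13.3% with all mice. Calls in the higher direction were 9.77%, 12.7%, 10.5% and 10.8%, beside 14.5%. The members called were *Psmc4* and *Psmd8* without mouse 1 and *Psmd8* without mouse 2. Without mouse 4 they were *Psma8* (-0.37, limma adjusted p = 0.033) and *Psmb7* (-0.50, 0.016), so none of the 4 genes called over all mice was among them. Without the pairing by mouse 3 were called lower, since *Psmc4* no longer passed, and 23.6% of all genes were called (12.4% higher and 11.2% lower). Centring each array on the hybridization controls, added RNAs of known amount, moved the median of all genes by -0.17. All members but *Psmb5* then had a difference below 0. Such centring shifts every gene of an array by the same amount, so the means relative to that median cannot change. They were -0.08 for the core and -0.08 for the regulatory particle in both fits.

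**Figure D1:**
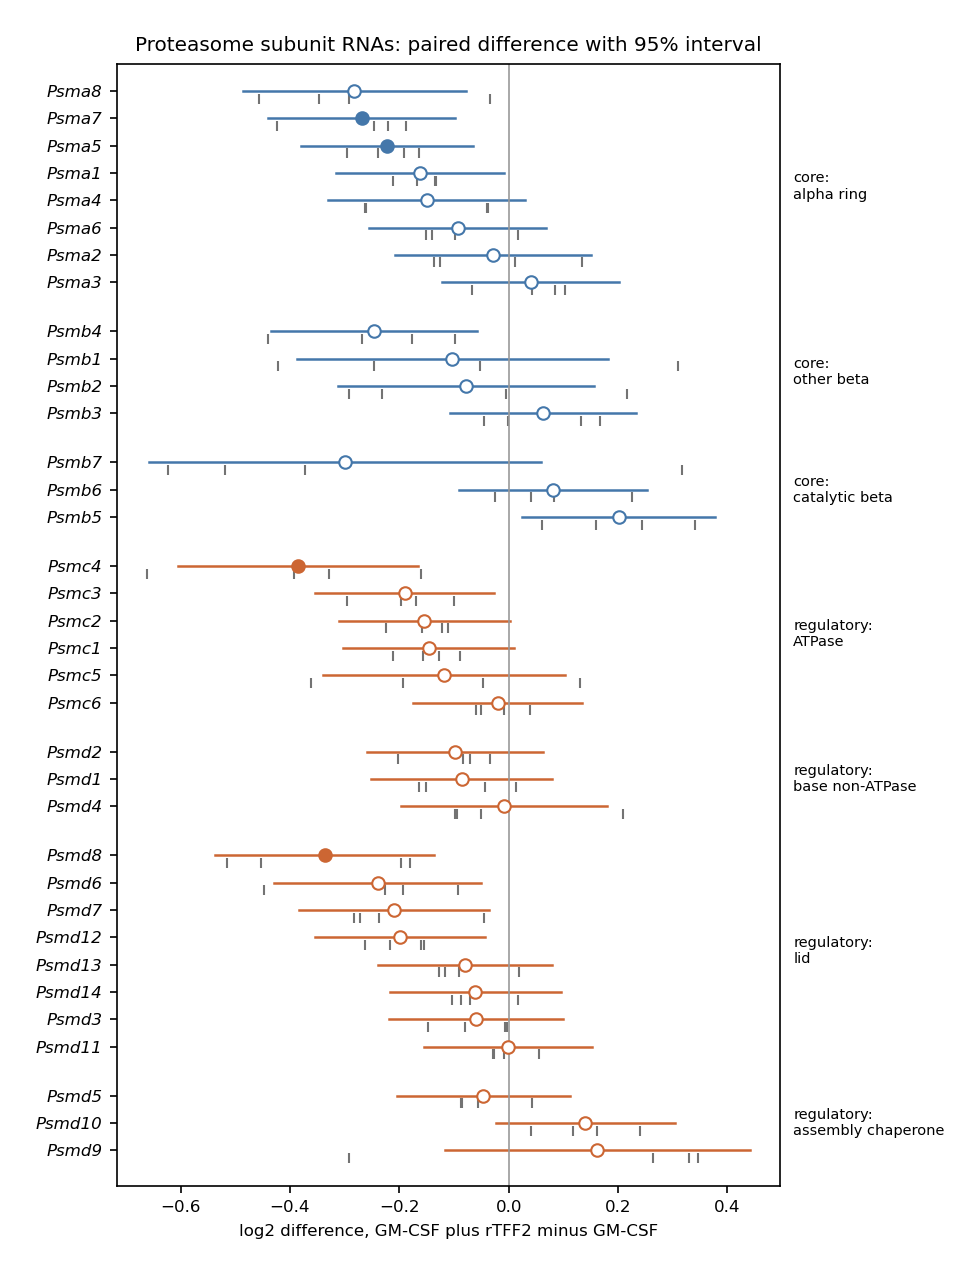
Log2 difference between GM-CSF plus rTFF2 and GM-CSF (x axis) for the 35 proteasome genes, grouped by role. Circles are fitted paired differences, lines their 95% intervals, small ticks the 4 mice, blue the core and orange the regulatory particle; filled circles mark the 4 genes past the threshold, all to the left of 0.

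In the alpha ring of the core, 2 of 8 genes fell with rTFF2 and 0 rose, with a median difference of -0.16. Of all genes, 13.3% were called lower and 14.5% higher. *Psma7* and *Psma5* encode neighbouring alpha subunits. *Psma7* measured 11.58, 11.60, 11.58 and 11.62 in the GM-CSF cultures and 11.36, 11.18, 11.39 and 11.37 with rTFF2. The GM-CSF cultures lay close together (SD 0.02, n = 4), and every rTFF2 culture lay below them, the one of mouse 2 farthest. The difference was -0.27 (SE 0.073, limma adjusted p = 0.034), so that the signal fell by 17.0%. A dimmer probe set of the gene gave -0.21 (adjusted p = 0.068).

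*Psma5* gave 11.85, 11.93, 11.82 and 11.82 with GM-CSF and 11.66, 11.63, 11.66 and 11.58 with rTFF2. The groups did not overlap, and the 4 mice differed by -0.19, -0.30, -0.16 and -0.24. The fitted difference of -0.22 (SE 0.067, adjusted p = 0.048 from limma) was a decrease of the signal, which fell by 14.3%, and lay at the edge of the threshold. It missed the threshold without any one of the mice (adjusted p 0.10 to 0.13), and the second probe set with a bright signal gave -0.21 (adjusted p = 0.078). For *Psma7* the adjusted p without one mouse was 0.073 to 0.10.

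*Psma8* encodes the alpha subunit that replaces *Psma7* in testis. Its signals were 3.64, 3.87, 3.25 and 3.01 with GM-CSF and 3.34, 3.41, 2.90 and 2.98 with rTFF2. These stood around the background level of 3.29, and the rTFF2 mean of 3.16 lay under it. The groups overlapped, and the difference of -0.28 did not pass (adjusted p = 0.052 with the block and 0.34 without it). The other alpha genes did not pass either: *Psma1* differed by -0.16 (adjusted p = 0.12) with groups that did not overlap, *Psma4* by -0.15, *Psma6* by -0.09, *Psma2* by -0.03 and *Psma3* by 0.04.

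Of the 4 beta subunits without a proteolytic site, 0 were called. *Psmb4*, whose product joins the core late in its assembly, had the smallest adjusted p among them. It measured 12.47, 12.79, 12.40 and 12.38 with GM-CSF and 12.37, 12.35, 12.23 and 12.11 with rTFF2. The lowest GM-CSF culture stood just above the highest rTFF2 culture. The difference was -0.25 (SE 0.080, limma adjusted p = 0.063), and a second probe set gave -0.09 (adjusted p = 0.36). *Psmb1* (-0.10) and *Psmb2* (-0.08) were lower with rTFF2 in 3 of 4 mice and higher in mouse 2, by 0.31 and 0.22, and *Psmb3* differed by 0.06.

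Of the genes of the 3 proteolytic subunits 0 passed; 2 fitted differences were above 0 and 1 below. *Psmb5*, which encodes the chymotrypsin-like site, was the only core gene higher with rTFF2 in 4 of 4 mice: it measured 11.18, 11.05, 11.12 and 10.92 with GM-CSF and 11.34, 11.30, 11.18 and 11.26 with rTFF2. The lowest rTFF2 culture stood just above the highest GM-CSF culture. The difference was 0.20 (SE 0.075, 95% interval 0.03 to 0.38, limma adjusted p = 0.094). It was called under a trended and robust prior (adjusted p = 0.043) and in no other alternative.

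*Psmb6*, which encodes the caspase-like site, gave 11.53, 11.48, 11.42 and 11.39 with GM-CSF and 11.76, 11.52, 11.39 and 11.47 with rTFF2. The groups overlapped, and mouse 1 had the largest difference, 0.23. The fitted difference of 0.08 (95% interval -0.09 to 0.25, limma adjusted p = 0.46) was within the spread between cultures and turned to -0.09 on the hybridization control scale. *Psmb5* and *Psmb6* are the core genes with the letters of the antioxidant response element shown above. The same letters stand before *Psmd9* (0.16), *Psmc6* (-0.02) and *Psmd12* (-0.20), and a link between letters and differences was not tested.

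*Psmb7*, which encodes the trypsin-like site, had the largest SE of the 35 genes. It measured 8.38, 8.44, 8.41 and 7.998 with GM-CSF and 8.01, 7.92, 7.79 and 8.31 with rTFF2. In mice 1 to 3 the rTFF2 culture was lower, by 0.37 to 0.62, and in mouse 4 it was higher by 0.32, with the GM-CSF culture of that mouse far below the others. The difference over all mice was -0.30 (SE 0.152, 95% interval -0.66 to 0.06, limma adjusted p = 0.20). Without mouse 4 it was -0.50 (adjusted p = 0.016), and with the *Actb* covariate 0.05.

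**Figure D2:**
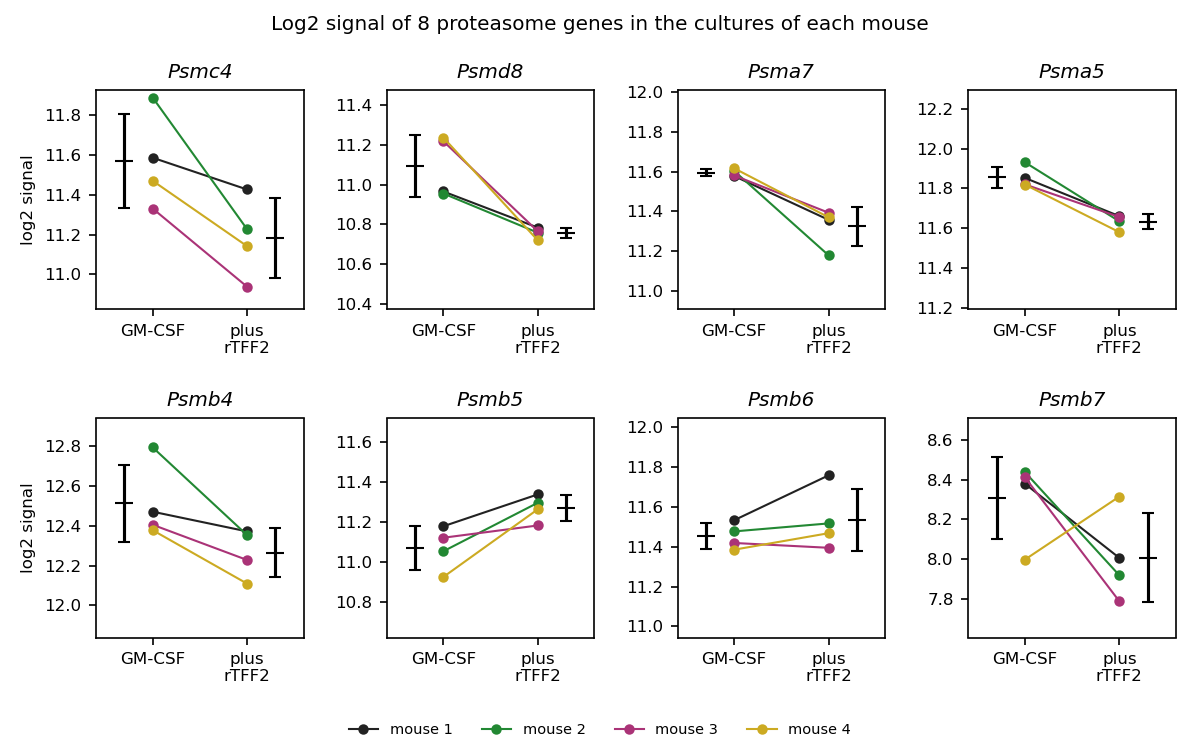
Log2 signal (y axis, the same span in each panel) of 8 proteasome genes with GM-CSF and with GM-CSF plus rTFF2; lines join the cultures of a mouse, and bars beside them give mean ± SD of 4 cultures. The 4 called genes fell in 4 of 4 mice, *Psmb5* was higher in 4 of 4 without passing the threshold, and *Psmb7* went the other way in mouse 4.

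In the ATPase ring of the regulatory particle, 1 of 6 genes fell and 0 rose, beside 13.3% and 14.5% of all genes. Of the fitted differences 6 of 6 were below 0 (median -0.15), as were 6874 of 12393 among all genes. *Psmc4* had the largest difference of all 35 proteasome genes. It measured 11.59, 11.89, 11.33 and 11.47 with GM-CSF and 11.43, 11.23, 10.94 and 11.14 with rTFF2. Mice differed in level so that the groups overlapped, yet in 4 of 4 mice the rTFF2 culture was lower, by 0.16 to 0.66. The difference was -0.39 (SE 0.093, 95% interval -0.61 to -0.17, limma adjusted p = 0.023), and the signal fell by 23.4%. Without the mouse as a block it did not pass (adjusted p = 0.075), nor without mouse 2 (-0.29, 0.060), mouse 3 (-0.38, 0.081) or mouse 4 (-0.40, 0.063), and its second probe set gave -0.20 (adjusted p = 0.11).

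*Psmc3* gave 9.80, 9.88, 9.74 and 9.59 with GM-CSF and 9.60, 9.72, 9.44 and 9.49 with rTFF2. It was lower in 4 of 4 mice with overlapping groups (-0.19, SE 0.069, limma adjusted p = 0.088). *Psmc2* measured 11.82, 12.04, 11.79 and 11.57, and 11.70, 11.81, 11.63 and 11.45 with rTFF2. The differences within mice ran from -0.11 to -0.22, and the difference of -0.15 did not pass (SE 0.066, limma adjusted p = 0.14); its second probe set gave -0.01. *Psmc1* (-0.15), *Psmc5* (-0.12) and *Psmc6* (-0.02) did not pass either.

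Of the 3 other base subunits 0 were called. *Psmd1* (-0.09) and *Psmd2* (-0.10), the large scaffolds on which the base is built, had intervals that included 0. *Psmd4*, the ubiquitin receptor, differed by -0.01 (95% interval -0.20 to 0.18).

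In the lid 1 of 8 genes fell and 0 rose, beside 13.3% and 14.5% of all genes. Of the fitted differences 8 of 8 were below 0 (median -0.14), as were 6874 of 12393 among all genes. *Psmd8*, a lid subunit that joins late in its assembly, measured 10.97, 10.96, 11.22 and 11.24 with GM-CSF and 10.78, 10.76, 10.77 and 10.72 with rTFF2. The rTFF2 cultures lay close together, below every GM-CSF culture, and the decrease was larger in mice 3 and 4 (0.45 and 0.52) than in mice 1 and 2 (0.18 and 0.20). The difference was -0.34 (SE 0.085, limma adjusted p = 0.027), and the signal fell by 20.8%. Without mouse 3 or 4 it did not pass (-0.30 and -0.28, adjusted p = 0.11 and 0.10).

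Further lid genes were lower in 4 of 4 mice and did not pass. *Psmd12*, a scaffold subunit whose promoter letters are shown above, gave 10.76, 10.79, 10.68 and 10.56 with GM-CSF and 10.54, 10.53, 10.51 and 10.41 with rTFF2 (-0.20, SE 0.066, limma adjusted p = 0.067). Its groups did not overlap, and the differences within mice ran from -0.15 to -0.26. *Psmd6* measured 12.20, 12.44, 11.93 and 11.91, and 11.97, 12.00, 11.83 and 11.72 with rTFF2 (-0.24, SE 0.080, limma adjusted p = 0.069). Its groups overlapped, and its second probe set gave -0.01 (adjusted p = 0.93).

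*Psmd7* encodes the partner of the deubiquitinase. It gave 9.96, 10.10, 9.85 and 9.87 with GM-CSF and 9.73, 9.82, 9.56 and 9.83 with rTFF2, without overlap (-0.21, SE 0.073, limma adjusted p = 0.080). The deubiquitinase gene itself, *Psmd14*, differed by -0.06 (95% interval -0.22 to 0.10). *Psmd13* (-0.08) and *Psmd3* (-0.06) did not pass. For *Psmd11* the probe sets disagreed: the brightest gave -0.00 (95% interval -0.16 to 0.15), and the next, at 9.99 with GM-CSF and 9.73 with rTFF2, fell by 0.26 (adjusted p = 0.035). It was the only one of 29 other probe sets of these genes that was called.

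The 3 Psmd genes that encode chaperones of the base, not subunits of the finished particle, were not called. *Psmd10* (gankyrin) was higher in 4 of 4 mice without overlap (0.14, limma adjusted p = 0.19). *Psmd9* was higher in 3 of 4 (0.16, adjusted p = 0.37) and *Psmd5* differed by -0.05. *Psmc3ip*, the gene that only shares the letters, was dim and fell (4.86 ± 0.21 to 4.42 ± 0.18, SD, n = 4, -0.44, limma adjusted p = 0.036).

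The core and the regulatory genes both had small mean differences below 0. The mean difference over the 15 core genes was -0.10, -0.11, -0.19 and -0.01 in mice 1 to 4, with a mean of -0.10 ± 0.07 (SD, n = 4 mice). Over the 20 regulatory genes, chaperones included, it was -0.09, -0.13, -0.15 and -0.06, with a mean of -0.11 ± 0.04. Both particles moved least in mouse 4 and most in mouse 3.

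Core minus regulatory particle was -0.01, 0.02, -0.04 and 0.05 in the 4 mice, with a mean of 0.00 ± 0.04. Its sign changed from mouse to mouse, and its size was below the spread between mice. Without the 3 assembly chaperones, an alternative chosen after seeing the data, the mean over 17 regulatory subunits was -0.14 ± 0.04. Core minus regulatory was then 0.03, 0.06, -0.02 and 0.08, with a mean of 0.04 ± 0.05, above 0 in 3 of 4 mice and still below the spread between mice. Leaving *Psma8* out, an alternative added after its low signal was seen, made the core mean -0.09. The mean over the 7582 genes above background was 0.03 ± 0.02, above 0 in each mouse. Calls numbered 2 of 15 core and 2 of 20 regulatory genes, and the difference between them was not tested because members are not replicates.

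**Figure D3:**
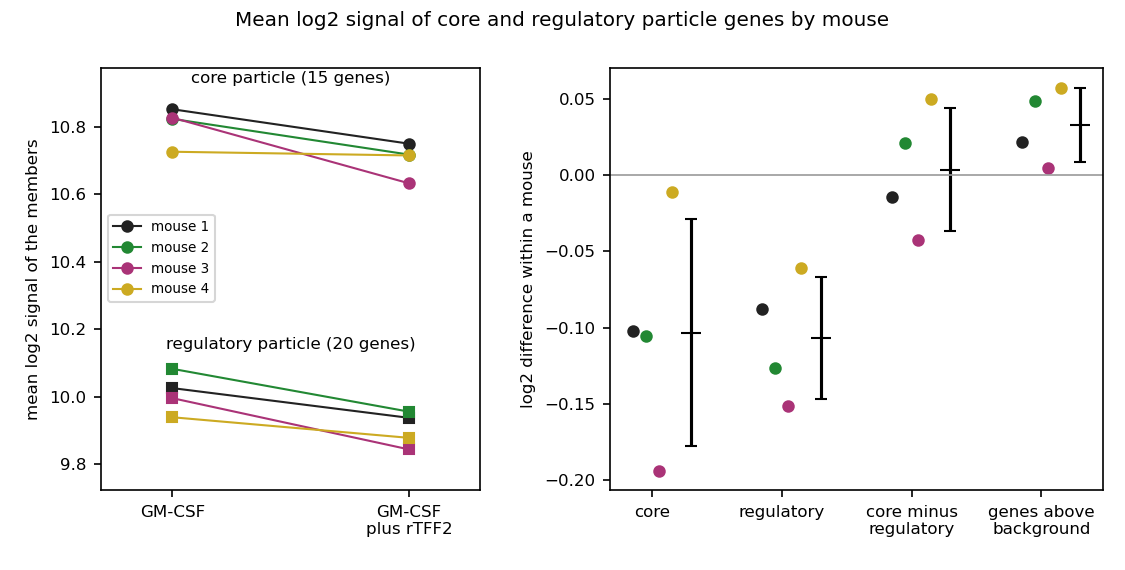
Left, mean log2 signal of the 15 core genes (circles) and the 20 regulatory genes with the 3 chaperones (squares) in each culture, with the cultures of a mouse joined; levels of the particles come from different probe sets and are not compared. Right, difference between GM-CSF plus rTFF2 and GM-CSF within each mouse with mean ± SD (n = 4): both lie below 0 in 4 of 4 mice, and core minus regulatory runs from -0.04 to 0.05.

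Of the 3 immunoproteasome genes, which the rule leaves out, 2 fell with rTFF2 and 0 rose. Beside this list and those below stand the shares of all genes, 13.3% called lower and 14.5% higher. *Psmb8* and *Psmb9*, induced by interferon, encode subunits that replace those of *Psmb5* and *Psmb6*, and *Psmb10* encodes the one that replaces that of *Psmb7*. *Psmb8* gave 11.65, 11.27, 11.72 and 11.66 with GM-CSF and 10.85, 11.03, 11.02 and 11.13 with rTFF2, without overlap (-0.57, SE 0.102, limma adjusted p = 0.0075). *Psmb9* gave 10.34, 9.68, 10.45 and 10.43, and 9.54, 9.49, 9.49 and 9.70 with rTFF2, with an overlap through mouse 2 (-0.67, SE 0.127, limma adjusted p = 0.0089). Both exceeded every constitutive gene in the size of the fall, and *Psmb10* differed by 0.10 (adjusted p = 0.40).

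The change of each inducible gene minus that of the gene it replaces was taken within mice. For *Psmb8* and *Psmb5* it was -0.77 ± 0.21 (SD, n = 4), below 0 in 4 of 4 mice (exact two-sided sign-flip permutation over the mice, p = 0.125, the smallest that 4 mice allow). For *Psmb9* and *Psmb6* it was -0.75 ± 0.36, also in 4 of 4 (exact p = 0.125). For *Psmb10* and *Psmb7* it was 0.39 ± 0.41, with mouse 4 below 0 (exact p = 0.25). No p under the threshold is possible with 4 mice, so these 3 comparisons are a description. The fall of *Psmb8* and *Psmb9* stood beside the lower markers of dendritic cells and MHC class II given above, and the part of those cells in it was not tested.

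Genes whose products build the core but are no part of it were read beside the core genes. Of 5 core assembly chaperones 2 fell and 0 rose. *Psmg1* and *Psmg2* encode partners of a complex on which the alpha ring is assembled. *Psmg2* went from 9.36, 9.61, 9.14 and 9.33 to 9.07, 8.91, 8.76 and 8.83 (-0.47, SE 0.086, limma adjusted p = 0.0077), and *Psmg1* from 8.46, 8.28, 8.59 and 8.49 to 8.05, 8.002, 8.17 and 8.16 (-0.36, SE 0.068, adjusted p = 0.0091). Neither overlapped between groups. *Pomp*, the maturation factor of the beta ring, differed by -0.00, and *Psmg3* and *Psmg4* did not pass (-0.06 and -0.21).

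Of 3 other activators and 1 inhibitor 0 were called. *Psme1*, a subunit of the cap that is induced by interferon, differed by -0.19 (adjusted p = 0.090 from limma), and *Psme4*, a nuclear activator, by 0.17 (adjusted p = 0.13). *Psme3* and the inhibitor *Psmf1* differed by 0.02 and -0.01.

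Among 10 further regulatory subunits and associated proteins, 1 rose and 2 fell. *Usp14*, a deubiquitinase that binds the base, went from 10.12, 10.37, 10.05 and 10.01 with GM-CSF to 9.68, 9.83, 9.51 and 9.56 with rTFF2. The groups did not overlap and the mice differed by nearly the same amount, 0.44 to 0.54 (-0.49, SE 0.066, limma adjusted p = 0.0024). *Txnl1*, a thioredoxin-like protein of the lid, differed by -0.25 (adjusted p = 0.034) and *Ube3c*, a ubiquitin ligase that binds the proteasome, by 0.46 (adjusted p = 0.0074). *Uchl5*, the other deubiquitinase of the base, differed by -0.21 and did not pass (adjusted p = 0.064). Of 8 genes of ubiquitin-conjugating enzymes 0 passed, with differences of -0.09 to 0.31.

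Of 14 genes listed as regulators of proteasome genes, a list that also holds the proteasome-binding *Zfand2a*, 4 rose and 1 fell. *Nfe2l1* and *Nfe2l2* themselves were each higher in 4 of 4 mice by 0.18 and did not pass (adjusted p = 0.18 and 0.13 from limma). Their partner *Mafg*, a small Maf protein, measured 9.27, 9.02, 9.14 and 9.60 with GM-CSF and 10.23, 9.84, 10.21 and 10.21 with rTFF2. Every rTFF2 culture lay above every GM-CSF culture (0.87, SE 0.089, 1.82-fold, limma adjusted p = 0.00091), while *Maff* fell by 0.29 (adjusted p = 0.043) and *Mafk* differed by 0.05. *Bach1*, a repressor at the same elements, rose by 0.44 (adjusted p = 0.014).

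*Zfand2a*, a stress-induced protein that binds the regulatory particle, measured 8.90, 9.06, 8.60 and 8.47 with GM-CSF and 9.67, 9.71, 9.51 and 9.29 with rTFF2. The groups did not overlap, and the difference of 0.79 (SE 0.072, 1.72-fold, limma adjusted p = 0.00062) passed under 16 of 16 alternatives. *Ngly1*, the glycanase that processes NRF1, rose by 0.43 (adjusted p = 0.0095). RNA levels of these listed genes do not measure the activity of their proteins. Of the 5 members with the letters of the antioxidant response element in the windows shown, 0 were called, with differences of -0.20 (*Psmd12*), -0.02 (*Psmc6*), 0.08 (*Psmb6*), 0.16 (*Psmd9*) and 0.20 (*Psmb5*). None of *Psma5*, *Psma7*, *Psmc4* and *Psmd8* was among those 5, though 7 of the 36 members had no promoter window to search.

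**Figure D4:**
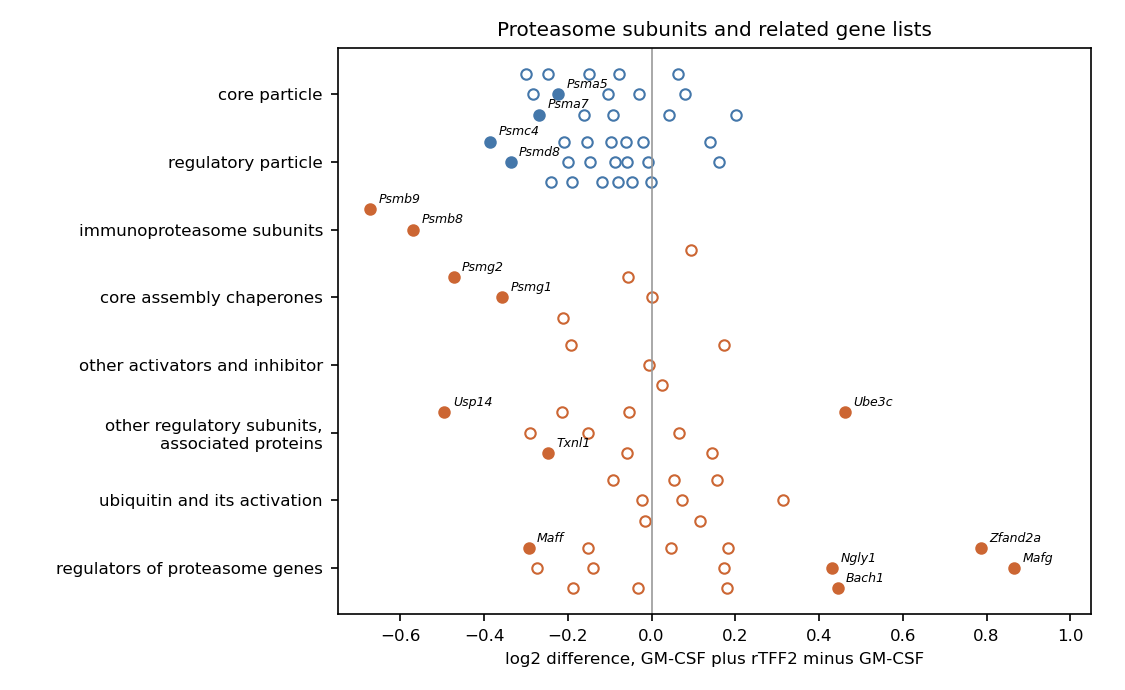
Log2 difference between GM-CSF plus rTFF2 and GM-CSF (x axis) for the constitutive genes (blue, 15 core and 20 regulatory) and the related lists (orange), 1 circle a gene, filled and named where it passed the threshold. The constitutive genes stay between -0.39 and 0.20, while called genes of the other lists reach from -0.67 (*Psmb9*) to 0.87 (*Mafg*).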

How the data were processed

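Affymetrix mouse genome arrays, 1 per culture, measured the RNA of 8 cultures of CD11b+Gr-1+ spleen cells that came from 4 *Tff2*-/- mice. The authors ran GCRMA on the scans and deposited its log2 signals. GCRMA estimates background from the bases of each probe, normalizes by quantiles and gives 1 value a probe set. Versions in the submitters' processing notes are 2.30.0 for GCRMA and 1.36.0 for affy. GCRMA forces like distributions, so a shift of all RNA would not be seen, and it sets the level of dim genes. The number of arrays limits the precision.

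The 22626 probe sets without the 64 control probe sets were tested with limma 3.58.1 (lmFit, eBayes) under R 4.3.3, the mouse being a block, with Benjamini-Hochberg adjustment over all probe sets and a threshold of 0.05. Groups and mouse numbers came from the labels. The methods name limma without pairing but describe splitting every animal's cells between both cultures, so the mouse pairs the samples. After subtraction of the group means, the 2 cultures of mice 1 to 4 correlated at 0.05, 0.54, 0.31 and 0.39 (13279 probe sets), and cultures of different mice at -0.54 to 0.34. Gene symbols came from the platform annotation: 20380 probe sets had 1 symbol, 691 several and 1555 none. Of the member symbols, 36 of 36 were the same in RefSeq. Exact permutation tests over the 70 divisions of the arrays, without pairing, were used for the technical values, and over the 16 sign patterns of the mice for the comparison with immunoproteasome genes. The alternatives were no block, a filter on dim probe sets, quantile normalization, centring on the median or on 18 hybridization control probe sets, leaving out each mouse, array weights, adding 32 to linear signals, a prior both trended and robust, the mean of all probe sets, no _x_at or _s_at probe sets, a threshold of 0.01 and the *Actb* covariate. Means without *Psma8* and without the assembly chaperones were added after seeing the data.

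The members, lists and markers were chosen with earlier results of these data known. Genes given in every sample were the 3 catalytic subunits and, by adjusted p, 4 other core, 3 Psmc and 4 Psmd genes; in each related list, up to 4 genes by adjusted p were named, and others as examples. The comparison of each immunoproteasome gene with the gene it replaces was added with results known.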

Additional observations from a re-analysis of the deposited data

Results flagged for a closer look

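In 6 of 76 sets of 4 cultures of one group (the 36 genes and the mean of each particle), 1 culture stood apart from the other cultures, judged by the gap to its nearest neighbour as a share of the whole range. Chance alone gives about 1 in 20. For *Psma7* with rTFF2, the culture of mouse 2 lay at 11.18 and the nearest at 11.36 (0.832 of the range). With GM-CSF, mouse 2 stood low for *Psmb2* (9.001, nearest 9.50, 0.838) and for *Psmd4* (9.81, nearest 10.19, 0.890). The rTFF2 culture of mouse 2 was high for *Psmd13* (8.85, nearest 8.67, 0.859). The GM-CSF culture of mouse 4 was low for *Psmb7* (7.998, nearest 8.38, 0.867), and that of mouse 3 was high for *Psmd3* (7.69, nearest 7.60, 0.914). Of the 6, 4 were cultures of mouse 2. *Psma7* still had a difference of -0.22 without mouse 2, with an adjusted p of 0.10 from limma.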

How the results depend on the processing

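Counts of constitutive genes called lower, given for all 35, the core and the regulatory particle, were 4, 2 and 2. They were 3, 2 and 1 without the mouse as a block, 3, 1 and 2 after quantile normalization, 10, 4 and 6 after median centring, 7, 4 and 3 after centring on hybridization controls, 7, 3 and 4 with the offset of 32, and 8, 4 and 4 with the trended and robust prior, where 1 core gene, *Psmb5*, was called higher. With the threshold of 0.01 and with the *Actb* covariate they were 0, 0 and 0. Leaving out each mouse gave 0 to 2, 0 to 2 and 0 to 2. The other alternatives gave counts within 1.5 times of these, and 0 genes were called higher in every alternative but the prior. Of all genes, the main fit called 13.3% lower. Without the block the share was 11.2%, after quantile normalization 13.8%, after median centring 17% and after centring on hybridization controls 17.7%. The offset gave 9.36%, the prior 14.3%, the threshold of 0.01 6.31% and the covariate 3.95%. Leaving out 1 mouse gave 8.03% to 11.4%. The core mean was -0.28 and the regulatory mean -0.28 after centring on hybridization controls, and the regulatory mean -0.16 after median centring; without each mouse they ranged from -0.13 to -0.07 and from -0.12 to -0.09. Among all genes, median centring changed the calls from 1791 higher and 1647 lower to 1524 and 2103, and centring on hybridization controls to 802 and 2198. After that centring the difference turned below 0 for *Psmb6* (-0.091), *Psmb10* (-0.077), *Psma3*, *Psmb3*, *Psmd9* and *Psmd10*. With the covariate it turned above 0 for *Psmb7* (0.048) and *Psmc5* and below 0 for *Psmb10* (-0.027) and *Psmd9*. *Psma3* also turned below 0 after median centring, *Psmd9* below and *Psma1* and *Psmd4* above 0 with the mean of all probe sets, and *Psma2*, *Psmb1*, *Psmd4* and *Psmd11* above 0 without some mice. The cause was not tested. The fit with the block moved no other call among the proteasome genes and related genes named than those of *Psmc4*, *Bach1* (adjusted p = 0.051 from limma without it) and *Maff* (0.26). *Psmb8*, *Psmb9*, *Psmg1*, *Psmg2*, *Usp14* and *Mafg* each lost their call in 1 of 16 alternatives, the covariate for all but *Psmb9*, which lost it with the offset (0.050). *Ube3c* and *Ngly1* lost it in 2, *Txnl1* and *Bach1* in 7 and *Maff* in 8.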
